A study of Mus musculus with 2 samples.

Results

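The genes of the Slc25 family on these arrays were taken as every probe, controls left out, whose RefSeq accession belongs to a mouse gene with a symbol starting Slc25a. That gave 47 genes, read by 56 probes, of 20654 genes that could be named on the arrays. Of the 47 genes, 36 were well above background on both arrays and are called measured here, as were 13479 of all named genes. The study hybridised RNA of cultured osteoclasts, the multinucleated cells that resorb bone, to 1-colour Agilent mouse arrays. The Dnmt3a knockout cells lack the de novo DNA methyltransferase Dnmt3a, and the wild type cells were the control, with 1 array each. Both came from female C57BL/6 mice. In both groups, bone marrow cells that did not adhere were first grown with M-CSF, and the adherent precursors were then grown with RANKL and M-CSF to make osteoclasts. The age of the mice, the Dnmt3a allele, any Cre driver and any pooling of animals are not given in the sources used here.

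Proteins of the Slc25 family sit mostly in the inner mitochondrial membrane, where they exchange metabolites between the cytosol and the matrix. They bring in ADP and phosphate for ATP synthesis and let ATP out, and they carry citrate, malate, aspartate, glutamate, nucleotides, coenzymes and iron. Osteoclasts are rich in mitochondria, and resorption by proton secretion draws on the ATP that these organelles supply.

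Differences are given as log2 values, knockout minus wild type, after each array was scaled to its 75th percentile. With 1 array per genotype there was no replicate, and therefore nothing was tested. The error beside a difference is the one the scanner software assigns to the spots, carried to the log2 scale. Its median over the measured family members was 0.20, while spots of the same probe repeated within the arrays differed with a median SD of 0.07. Neither figure covers variation between mice or cultures. Dnmt3a itself, read by 1 probe, had 1822 on the knockout and 7042 on the wild type array, a difference of -1.92 (scanner error 0.20). Which bases of Dnmt3a are deleted and where its probe lies relative to them are not given here. All 11 osteoclast markers lay below 0, from -1.20 (Tnfrsf11a) to just under 0 (Acp5), with a median of -0.58 and summed signals of 988199 on the knockout and 1160805 on the wild type array. All 8 measured macrophage markers (median 0.74, summed signals 434552 and 377663) and all 10 neutrophil markers (median 0.47, summed signals 275632 and 228670) were higher on the knockout array. On the same array 7 of 8 stromal markers were lower (median -0.84, summed signals 47043 and 73936). Each pair of sums has the knockout array first. With the spike-in scaling described further on, the neutrophil median falls below 0 and the macrophage median stays above it. In such mixed cultures fewer cells of a type and less RNA per cell cannot be told apart, and the part of these markers in the values below was not tested.

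Relative to all measured genes the family was not shifted, and its members lay on both sides of 0. Of the 36 measured members 17 lay below 0, which is 47.2%, against 48.1% of all measured genes. Their median difference was 0.01, the same as the 0.01 over all measured genes, and their SD was 0.28 against 0.37. Lower by 1.5-fold or more in the knockout were 2 members, Slc25a42 and Slc25a47, where 4.69% of all measured genes were that low. At least 1.5-fold higher was 1 member, Slc25a35, where 5.82% of all measured genes were that high. No member differed by 2-fold or more, against 1.55% of all measured genes. The difference exceeded the scanner error downwards in 8 members and upwards in 7, with 21.3% and 23.7% of all measured genes on these sides. These counts lie near the background, so the family is described below by the roles of its members.

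**Figure D1:**
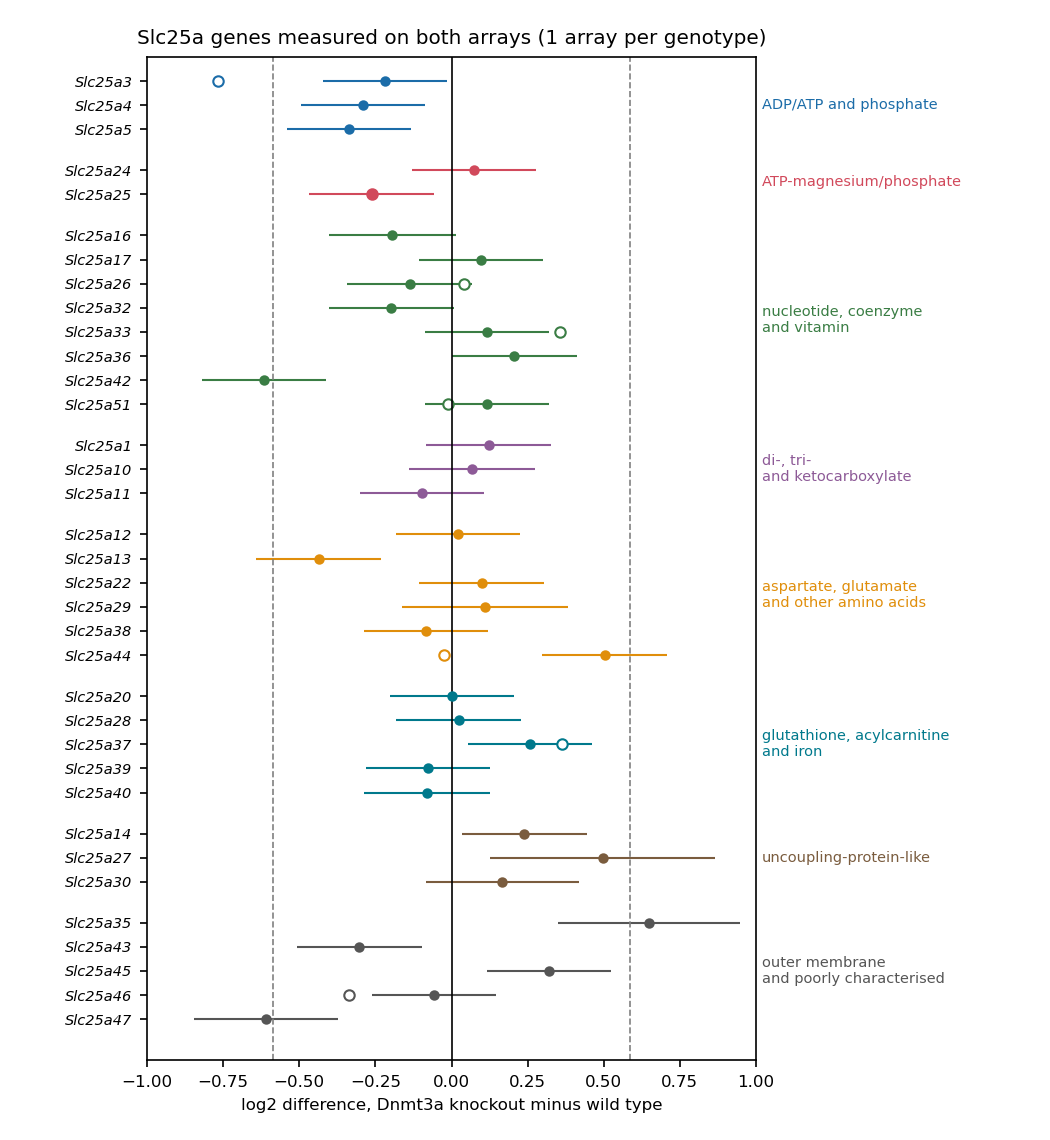
Log2 difference (knockout minus wild type) of 35 of the 36 measured Slc25a genes, grouped by role. Filled points are the probe that stands for the gene with the scanner error as a bar, open points a further probe of the same gene, and dashed lines mark 1.5-fold. The 3 ADP/ATP and phosphate carriers lie left of 0 and the 3 carriers like uncoupling proteins right of it, but with spike-in scaling these 3 also lie left of 0.

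The 3 measured carriers that feed ATP synthesis were each lower on the knockout array, by amounts common among all measured genes. Slc25a4 and Slc25a5, the ADP/ATP carriers also called Ant1 and Ant2, and Slc25a3, the phosphate carrier, all lay below 0, between -0.34 and -0.22. Of all measured genes, 21.16% lay lower than Slc25a3, 15.79% lower than Slc25a4 and 13.03% lower than Slc25a5. Whether the 3 changed as a group was not tested. Slc25a4 is the measured member read by the most spots. Its probe is spotted 10 times on each array, and 9 of these spots were free of flags. Over those 9 spots its signal lay between 55615 and 58883 on the knockout array, with a median of 58528, and between 68454 and 75601 on the wild type array, with a median of 72200. All 9 differences were negative, from -0.33 to -0.20, with a mean of -0.29 ± 0.04 (SD, n = 9 spots of 1 array per genotype). This corresponds to a 1.22-fold lower signal, and it repeats the measurement of the same 2 RNA samples, not of further cultures. The repeated spots show how precise the probe is, not which RNA it binds. Whether RNA of the close relative Slc25a5 reaches the Slc25a4 probe was not tested.

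Slc25a5 had a signal of 36010 on the knockout and 46429 on the wild type array, a difference of -0.34 (scanner error 0.20). Its spot lies in array row 17. The RefSeq table also holds a pseudogene of this gene, Slc25a5-ps, with no probe here, and whether its RNA or that of the close relative Slc25a4 reaches this probe was not tested. For Slc25a3 the probe with the higher signal gave 46126 on the knockout and 54740 on the wild type array, a difference of -0.22, just past its scanner error of 0.20. Its second probe, against the same transcript accession, gave 6094 and 10589, again with the knockout first, a difference of -0.77 or 1.70-fold. The direction was the same on both probes and the size was not. Slc25a31, the ADP/ATP carrier of germ cells, was not well above background on either array.

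The promoter of Slc25a3 is shown because it holds a match to the NRF1 motif, described below, which was the planned rule. Those of Slc25a4 and Slc25a5 were added because these genes lay on the same side of 0 as Slc25a3. Slc25a42, the lowest member, and Slc25a45, a well measured member on the other side, were also added. The added promoters were chosen after their values were seen. Each promoter shown is the 250 bases before the annotated start from RefSeq (GRCm38.p6), read 5′ to 3′ on the gene's strand. Every CpG dinucleotide, the site that DNA methyltransferases act on, is in capitals. The windows are chr10:91123968-91124217 (minus strand) for Slc25a3, chr8:46211063-46211312 (minus) for Slc25a4, chrX:36795347-36795596 (plus) for Slc25a5, chr8:70212282-70212531 (minus) for Slc25a42 and chr19:5877572-5877821 (plus) for Slc25a45.
Slc25a3: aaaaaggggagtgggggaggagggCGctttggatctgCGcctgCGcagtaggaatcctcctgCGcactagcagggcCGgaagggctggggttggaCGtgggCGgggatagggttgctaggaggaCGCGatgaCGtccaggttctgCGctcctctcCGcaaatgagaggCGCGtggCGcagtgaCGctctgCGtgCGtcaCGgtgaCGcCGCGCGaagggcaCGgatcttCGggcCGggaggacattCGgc
Slc25a4: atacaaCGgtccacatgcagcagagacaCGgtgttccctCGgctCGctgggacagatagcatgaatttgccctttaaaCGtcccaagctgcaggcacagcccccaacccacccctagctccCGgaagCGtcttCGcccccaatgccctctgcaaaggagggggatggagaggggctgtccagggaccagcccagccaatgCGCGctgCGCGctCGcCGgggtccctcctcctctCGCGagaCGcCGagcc
Slc25a5: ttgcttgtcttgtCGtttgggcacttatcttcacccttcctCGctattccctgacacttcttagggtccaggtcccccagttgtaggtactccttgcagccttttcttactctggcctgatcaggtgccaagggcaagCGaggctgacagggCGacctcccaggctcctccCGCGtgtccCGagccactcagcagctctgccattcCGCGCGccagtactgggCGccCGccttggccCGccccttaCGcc
Slc25a42: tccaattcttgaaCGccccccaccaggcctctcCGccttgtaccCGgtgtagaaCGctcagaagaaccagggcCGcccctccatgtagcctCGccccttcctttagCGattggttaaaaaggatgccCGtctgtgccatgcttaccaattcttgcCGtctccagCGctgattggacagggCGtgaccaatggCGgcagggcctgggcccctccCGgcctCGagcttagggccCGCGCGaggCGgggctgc
Slc25a45: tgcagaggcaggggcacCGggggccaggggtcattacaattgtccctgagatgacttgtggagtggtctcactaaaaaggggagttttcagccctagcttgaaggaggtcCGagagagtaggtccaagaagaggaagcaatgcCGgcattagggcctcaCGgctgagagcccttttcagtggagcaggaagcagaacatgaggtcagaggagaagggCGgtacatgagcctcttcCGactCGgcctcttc

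The printed stretch of Slc25a3 holds 27 CpG dinucleotides, that of Slc25a4 18, of Slc25a5 14, of Slc25a42 18 and of Slc25a45 7. These picked promoters cannot show how CpG count goes with the difference. Across the measured members with a promoter window there was hardly any relation (Spearman's rho 0.03), as described further on. The stretch of Slc25a3 matches the core letters, CGCNTGCG, of the motif of NRF1 (nuclear respiratory factor 1, a regulator of many mitochondrial genes). The search covered both strands. The match reads CGCCTGCG and begins 213 bases before the start. No match was found in the other printed stretches. Slc25a3 was the only measured member whose window had a match, so this contrast follows from the choice.

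The ATP-magnesium/phosphate carriers adjust the adenine nucleotide pool of the matrix, and most of them respond to calcium. Slc25a25 had a signal of 806 on the knockout and 987 on the wild type array, a difference of -0.26 (scanner error 0.20). Its second probe gave 311 and 381 in the same order, and also -0.26, so both probes gave the same value. Slc25a24 differed by 0.07, within its scanner error. Slc25a23 and Slc25a41 were not well above background on either array, and for Slc25a23 the signals of 20.1 on the knockout and 9.76 on the wild type array carry a scanner error of 1.07.

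All 9 carriers of nucleotides, coenzymes and vitamins were measured, with 5 below 0 and a median of -0.04. The lowest of the whole family was Slc25a42, which brings coenzyme A into the matrix in exchange for adenine nucleotides. Its single probe gave 1792 on the knockout and 2802 on the wild type array, a difference of -0.62 (scanner error 0.20) or 1.53-fold, and 4.16% of the measured genes lay lower. Next lowest among these 9 was the folate and FAD carrier Slc25a32, with 329 on the knockout and 385 on the wild type array (-0.20), and Slc25a16 (-0.19), both within their scanner errors of 0.21. The carrier of S-adenosylmethionine, Slc25a26, moves the methyl donor into mitochondria, and its 2 probes disagreed in sign, at -0.14 and 0.04.

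Among the other coenzyme carriers, the pyrimidine nucleotide carriers both lay above 0. Slc25a33 gave 0.12 on its brighter probe and 0.36 on the other, and Slc25a36 gave 597 on the knockout and 528 on the wild type array, a difference of 0.21 that about equals its scanner error. With spike-in scaling (described further on) all of these values turn negative. The NAD carrier Slc25a51 (0.12 and -0.01 on its 2 probes) and the peroxisomal carrier Slc25a17 (0.10) differed by less than the scanner error.

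The measured carriers of di- and tricarboxylates differed little. The citrate carrier Slc25a1, which exports citrate for fatty acid synthesis, had 3475 on the knockout and 3260 on the wild type array (0.12). The dicarboxylate carrier Slc25a10 differed by 0.07, and the oxoglutarate/malate carrier Slc25a11, with 31027 on the knockout and 33864 on the wild type array, by -0.10. All 3 were within the scanner error of 0.20 to 0.21. Slc25a21, the oxoadipate carrier, was not well above background on either array.

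In the amino acid group the 2 aspartate/glutamate carriers, which drive the malate-aspartate shuttle, had unlike values. Slc25a13, known as citrin, had 2725 on the knockout and 3765 on the wild type array, a difference of -0.44 (scanner error 0.20) or 1.35-fold. Slc25a12, known as aralar, had 5546 and 5574, again with the knockout first, a difference of 0.02. Each rested on 1 probe, and the gap between the paralogs was not tested. Slc25a44, the carrier of branched-chain amino acids, had 2 probes against different transcript accessions. The brighter one gave 2272 on the knockout and 1637 on the wild type array, a difference of 0.50 (scanner error 0.20) that becomes -0.02 with spike-in scaling. The other gave 306 and 318 in that order, a difference of -0.03, so the higher value was seen by 1 of 2 probes. The glutamate carrier Slc25a22 (0.10), the basic amino acid carrier Slc25a29 (0.11) and the glycine carrier Slc25a38 (-0.08), needed for heme synthesis in red cell precursors, stayed within the scanner error.

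The mitoferrins bring iron into mitochondria for heme and iron-sulphur clusters. Slc25a37, mitoferrin 1, had 3300 on the knockout and 2815 on the wild type array, a difference of 0.26 (scanner error 0.20), and its second probe gave 380 and 302 in the same order, or 0.36. Both probes were thus higher on the knockout array, while with spike-in scaling the value of the brighter one is -0.27. Slc25a28, mitoferrin 2, had 3916 and 3934 in that order and differed by 0.02. Slc25a37 is known for its high expression in red cell precursors. Erythroid markers beside it were measured for 5 of 8 genes on the array, 4 of them below 0 (median -0.45), with summed signals of 2385 on the knockout and 3107 on the wild type array, and Alas2 and Klf1 were not well above background on either. The glutathione carriers Slc25a39 and Slc25a40 (both -0.08) and the carnitine/acylcarnitine carrier Slc25a20 (0.00) differed by less than their scanner errors.

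The 3 carriers named for their likeness to uncoupling proteins all lay above 0, with a median of 0.24, and all fell below 0 with spike-in scaling. Slc25a14 had 1441 on the knockout and 1246 on the wild type array (0.24, scanner error 0.20). The other two were dim: Slc25a27 had 48.5 and 35.1 (0.50, scanner error 0.37, but 0.31 after quantile normalization and 0.13 after normexp) and Slc25a30 had 86.2 and 78.3 (0.17, scanner error 0.25), knockout first in each pair. The uncoupling proteins proper and the outer membrane relatives of the family carry other symbols and were read as a list. Of these, Ucp2 differed by 0.13, Ucp3 by 0.22, Mtch1 by 0.15 and Mtch2 by -0.14, and Ucp1 was not measured on both arrays.

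The remaining members are poorly characterised or sit in the outer membrane. Slc25a35 was the highest of the family, with 74.4 on the knockout and 48.4 on the wild type array, a difference of 0.65 (scanner error 0.30) or 1.57-fold. It was the only measured member that stayed above 0 under all 10 alternative settings, but several of these left the value of its single probe at 0.65. With spike-in scaling it was 0.12, within its scanner error, and after normexp background correction 0.32. Slc25a47 had 71.1 on the knockout and 110.7 on the wild type array, a difference of -0.61 (scanner error 0.24), which became -0.30 after normexp. Its spot lies in row 48 and column 1, at the edge of the array. Slc25a43 had 590 and 742 (-0.30, scanner error 0.20) and Slc25a45 had 1964 and 1607 (0.32, scanner error 0.20; -0.21 with spike-in scaling), knockout first. Slc25a46, an outer membrane protein that shapes mitochondria, gave -0.06 on its brighter probe and -0.34 on the other.

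Another 10 members were not well above background on either array: Slc25a2, Slc25a15, Slc25a18, Slc25a21, Slc25a23, Slc25a31, Slc25a41, Slc25a48, Slc25a53 and Slc25a54. Their signals lay between 3.83 and 20.1 on the knockout array and between 5.49 and 24.8 on the wild type array, where the medians of the negative control spots were 4.24 and 6.06 in that order. They have no interpretable difference. Slc25a34 was well above background on the knockout array only, with 25.3 against 18.7 on the wild type array. Its knockout signal about equals, after scaling, the lowest wild type signal that counts as well above background. That mark does not follow the signal alone, since Slc25a23 fails it at 20.1 on the knockout array, where a spot at 17.7 passes. No lower bound on the difference of Slc25a34 follows, and its size is not known.

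**Figure D2:**
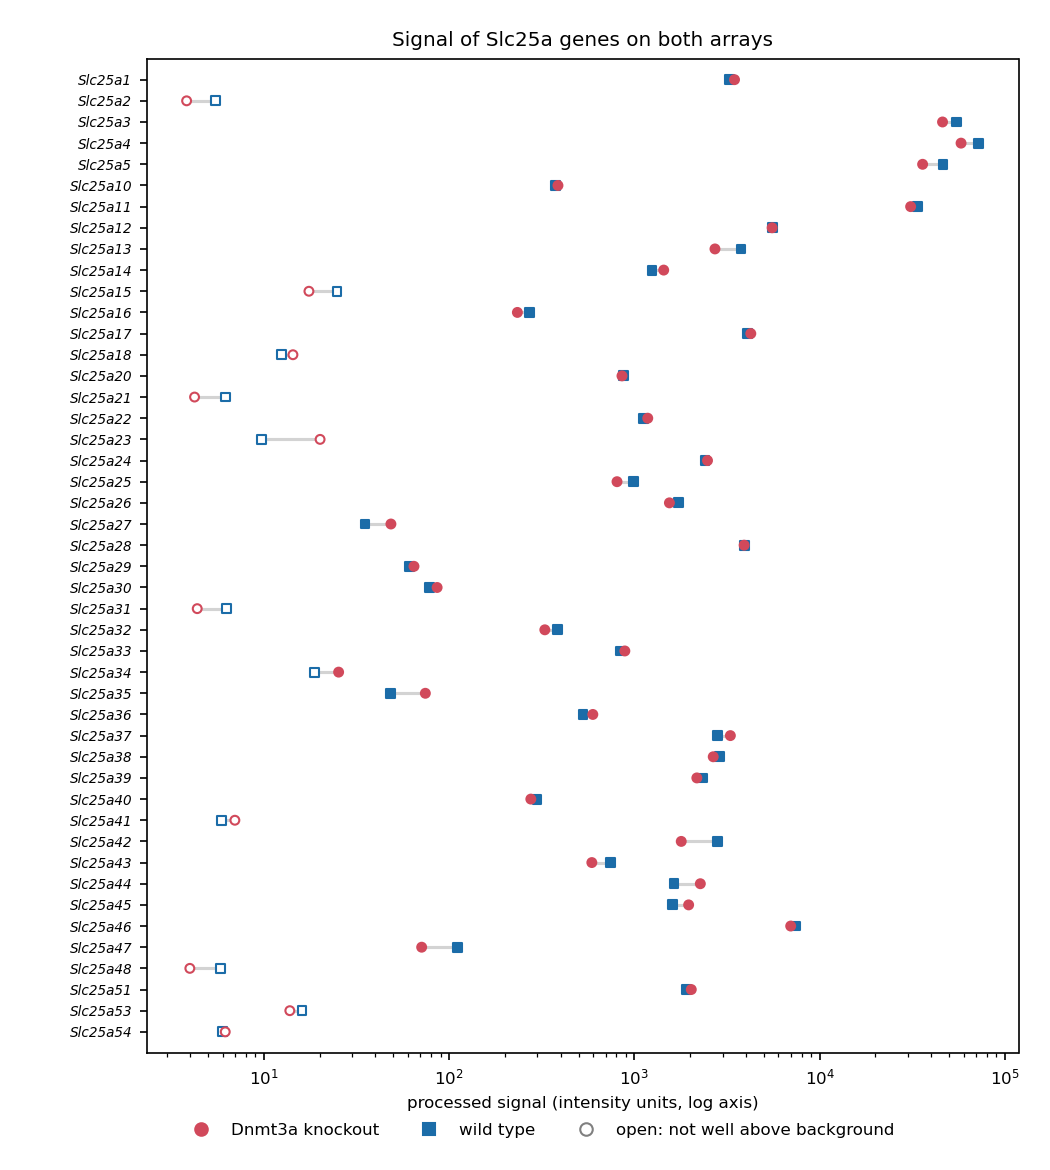
Processed signal (log axis, not scaled between arrays) of the probe that stands for the gene, for 46 of the 47 Slc25a genes, on the knockout array (circles) and the wild type array (squares). Open symbols are not well above background, as for both arrays of Slc25a2 and Slc25a31. Signals of different genes come from different probes and are not to be compared with each other.

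Of the 36 measured members, 8 had 2 measured probes. In 5 of these both probes lay on the same side of 0, namely Slc25a3, Slc25a25, Slc25a33, Slc25a37 and Slc25a46. The gap between the 2 probes had a median of 0.21 and reached 0.55 in Slc25a3. Over the 2840 named genes with 2 measured probes the median gap was 0.13, and 75% had both on the same side. In 90% of those genes the gap was at most 0.46.

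The most abundant signals of the family lay mostly below 0. When the measured genes were divided into 4 equal groups by mean signal level, the group with the highest levels held 7 members, of which 6 lay below 0 (median -0.10), where 45.2% of all measured genes in that group did. Slc25a3, Slc25a4, Slc25a5, Slc25a11 and Slc25a46 were among these, and the exception was Slc25a12. Only Slc25a3, Slc25a4 and Slc25a5 lay below 0 by more than the scanner error. In the groups below it, from high to low, 5 of 15, 5 of 9 and 1 of 5 members lay below 0. The shares of all measured genes below 0 were 49.1%, 50.7% and 47.5% in the same order. The medians of the members were 0.10, -0.08 and 0.17, so there was no steady trend.

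Other mitochondrial genes that work with these carriers were read as lists. ATP synthase, which uses the ADP and phosphate that the carriers import, had 15 of 16 measured genes below 0, with a median of -0.21 and Atp5g1 (-0.35) and Atp5g3 (-0.32) lowest. At the high end were Atp5g2 (-0.05) and the inhibitor gene Atpif1 (0.01). The 3 voltage-dependent anion channels, the pores of the outer membrane for the same metabolites, were all below 0: Vdac1 at -0.33, Vdac2 at -0.22 and Vdac3 at -0.07. The mitochondrial pyruvate carrier, which belongs to another family, had its subunit Mpc2 at -0.46 and Mpc1 at -0.10. For comparison, the median over all measured genes was 0.01, and no gene of these 3 lists was 1.5-fold lower or higher.

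The machinery that inserts the carriers into the inner membrane, the TIM22 complex with its small Tim chaperones and the receptor Tomm70, had 8 of 10 measured genes below 0 and a median of -0.25. The receptor (Tomm70a in the RefSeq table) was lowest at -0.50, followed by Timm8a1 (-0.48), and Timm10b (0.13) was highest. The malate-aspartate and citrate-malate shuttles work through Slc25a11, Slc25a12, Slc25a13 and Slc25a1. The list of their enzymes also holds glutamate dehydrogenase and enzymes of the glycerol phosphate shuttle, which are not part of them. This whole list had 9 of 10 below 0 with a median of -0.16. Malic enzyme Me2 (-0.42) and malate dehydrogenase Mdh2 (-0.38) were lowest, and glutamate dehydrogenase Glud1 (0.24) was highest. Carnitine shuttle and beta-oxidation genes had 11 of 15 below 0 (median -0.13), with Cpt1c (-0.55) and Hadhb (-0.39) lowest and Cpt1a (0.31) highest.

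Genes of mitochondrial iron, heme and iron-sulphur cluster synthesis had 13 of 16 measured genes below 0, with a median of -0.26, on the other side of 0 from Slc25a37. The transporter Abcb10 (-0.43), known to bind mitoferrin 1, was lowest, and Tmem14c (0.23) was highest. Mitochondrial folate and one-carbon enzymes had 7 of 10 below 0 (median -0.25), the same side as the folate carrier, with Aldh1l2 (-0.80) and Mthfd2 (-0.55) lowest. Aldh1l2 was the only gene of the list at least 1.5-fold lower. The calcium uniporter list (8 genes, 4 below 0, median 0.08) and the mitochondrial antioxidant list (9 genes, 4 below 0, median 0.05) went both ways. In the calcium list, Mcub, the inhibitory subunit of the uniporter, was highest at 0.82, with 1465 on the knockout and 845 on the wild type array, and Letm1 lowest at -0.44.

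**Figure D3:**
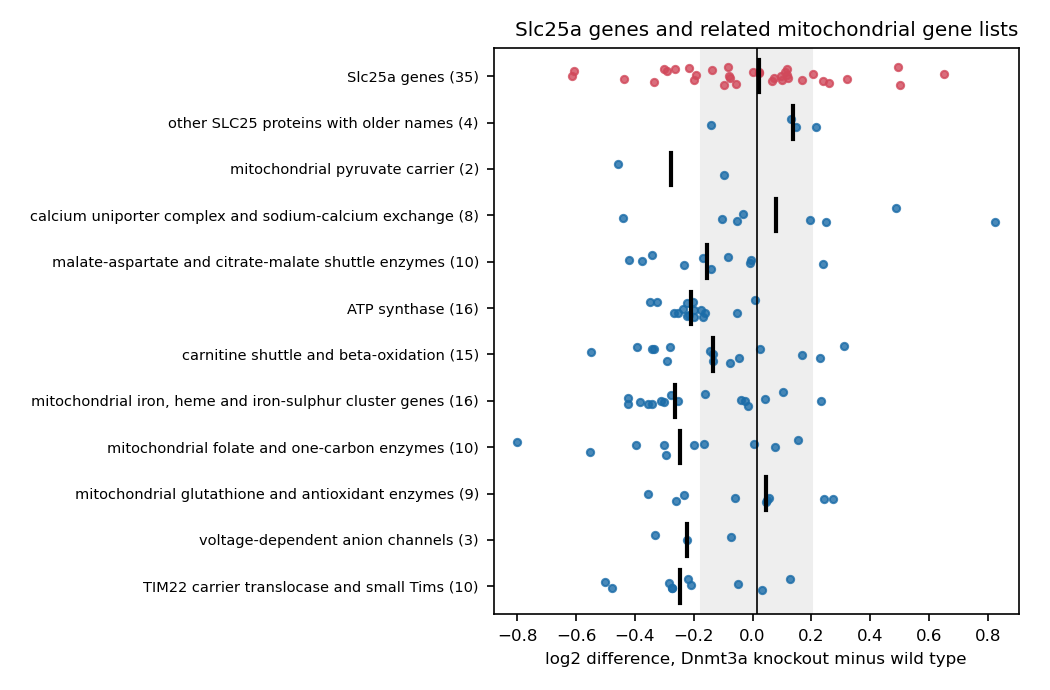
Log2 difference (knockout minus wild type) of the measured Slc25a genes (red) and of 11 lists of related mitochondrial genes (blue), with the number of genes in brackets. Each point is a gene, placed at random in height, black ticks are list medians, and the grey band and line give the range between the 25th and 75th percentiles and the median of all measured genes. The ticks of the ATP synthase and TIM22 lists lie left of the band, at -0.21 and -0.25, and that of the Slc25a genes lies at 0.01. All values shift down by 0.53 with spike-in scaling.

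The side of 0 on which a member lies depends on the scaling. Spike-in RNA is meant to be added to each sample in equal amount, and the labels do not say how it was added. Scaling to the 8 spike-in probes that were well above background lowered every difference by 0.53, a shift that ranged from 0.30 to 0.74 over the single probes, and moved the median of all measured genes to -0.51. With it 35 of 36 members lay below 0 (median -0.51), as did 92.5% of all measured genes. At least 1.5-fold lower were 15 of the 36 members, against 5325 of all 13479 measured genes. Values here are therefore relative to the bulk of the genes on each array. The 17 members below 0 stayed there in every alternative that gave a value for them. Spike-in scaling lowers every difference, so it could not have moved them above 0. Of these 17 members, 8 lay below 0 by more than the scanner error. Another 14 members lay above 0 in all settings apart from spike-in scaling, under which only Slc25a35 of them stayed above 0. The other 5 changed sides under at least 1 more alternative. Several of the alternatives leave the value of a gene with 1 probe unchanged.

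**Figure D4:**
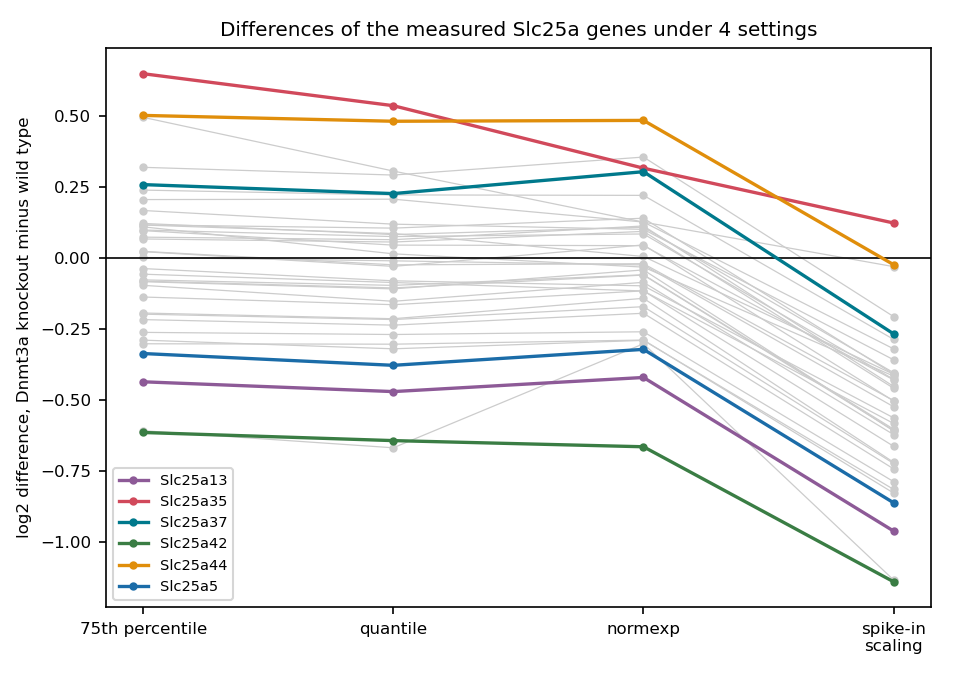
Log2 difference (knockout minus wild type) of the 36 measured Slc25a genes under 4 of the settings, with 1 line per gene and 6 genes coloured. Slc25a35 is at 0.65 with the 75th percentile and 0.32 after normexp, where Slc25a44 lies above it, and all but Slc25a35 lie below 0 with spike-in scaling.

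Promoter windows of 300 bases (250 before to 50 after the start) were held by RefSeq for 27 of the 36 measured members, 33 windows in all. Their median number of CpG dinucleotides was 17, against 19 in the 13681 windows of all measured genes and 7 in all 32851 windows. Across these 27 members, which are not independent replicates, CpG count and difference showed hardly any relation (Spearman's rho 0.03, Pearson's r 0.03). Members at or above the median count of 19 had a median difference of -0.03 (14 genes), and those below it 0.00 (13 genes). The core NRF1 letters were found in 1 of the 33 windows (3.03%), that of Slc25a3, against 15.2% of the windows of measured genes and 8.21% of all windows. AAGGTCA, a short binding motif of nuclear receptors such as the estrogen-related receptors, was in none of the 33, against 3.44% of the windows of measured genes and 4.72% of all windows. No methylation was measured in these samples, and the absence of a match says only that these letters are not in this window.

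**Figure D5:**
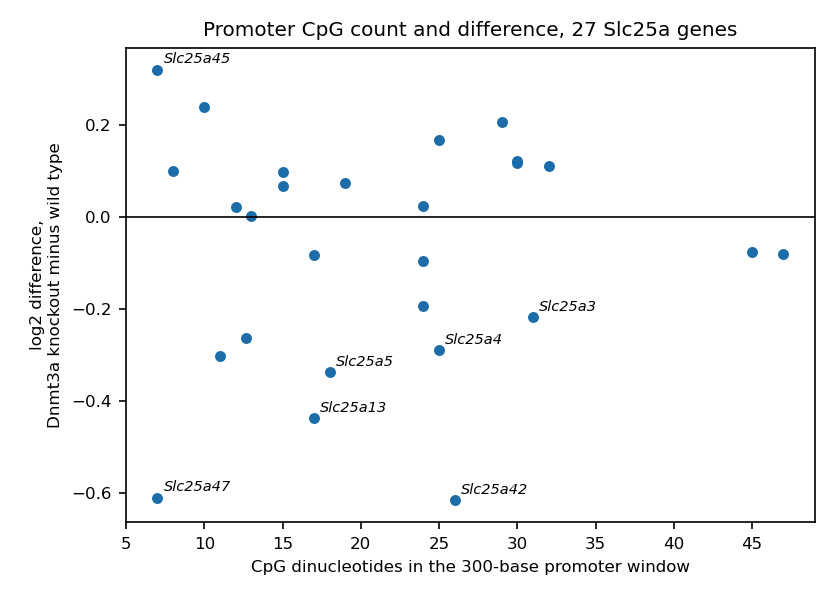
CpG dinucleotides in the 300-base promoter window (mean over a gene's windows) against the log2 difference, knockout minus wild type, for the 27 measured Slc25a genes with a window. Members of like difference differ in CpG count: Slc25a42 and Slc25a47 lie near -0.6 with 26 and 7 CpG dinucleotides.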

How the data were processed

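RNA of Dnmt3a knockout and wild type osteoclast cultures was read on 1 array each, both on 1 slide. Per the file headers, the deposited intensity of each spot was background-subtracted and spatially detrended by Agilent Feature Extraction 10.10.1.1, with no scaling between arrays; the submitters' processing notes name version 9.1, and which one applies was not settled. The deposited value table holds the same intensity multiplied by 1 factor per array (1.54 for the knockout, 1.55 for wild type), uncentred and not a ratio. How those factors were chosen is unknown; the column medians were 66.5 and 59.6. It served as an alternative. Per the file headers, other deposited columns mark spots that are uneven, saturated or well above background.

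Here log2 of the processed signal was taken relative to the 75th percentile of the 59305 spots per array that are not controls. Flagged spots were left out, spots of a probe were averaged, and the probe with the highest mean level stood for its gene. Names came from matching accessions to the RefSeq table of GRCm38.p6 (27224 of 55649 probes). The share of spots passing the background mark was 59.7% for the knockout and 52.7% for wild type. No spot was saturated. The number of arrays limits the precision. The calculation was tested on simulated data. Every member is in the counts, and 1 is not reported here by name or drawn singly; of each related list the 2 highest and 2 lowest genes are named. Of the 2 promoters with an NRF1 match that were to be shown, Slc25a31 was left out as not measured, and 4 others were added after seeing values. The members, lists and rules were chosen with earlier results of these data known. Python 3.11.15, NumPy 2.4.6, pandas 2.3.3 and Matplotlib 3.10.9 were used.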

Additional observations from a re-analysis of the deposited data

How the results depend on the processing

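The median difference of the members (0.01) and the number below 0 (17 of 36) stayed close to these values under quantile normalization, the percentile over detected spots, all probes averaged, the deposited value table, flagged spots kept, normexp, and without the spots of 1 array corner, with medians from -0.03 to 0.01 and 17 to 20 members below 0. With spike-in scaling the median was -0.51 and 35 members lay below 0. At least 1.5-fold lower were 15 of 36 members (2 in the 75th percentile setting), against 5325 of all 13479 measured genes with spike-in scaling. With the same scaling 0 members were at least 1.5-fold higher (1 in the 75th percentile setting) and 2 at least 2-fold lower (0 in that setting). The shift is the scaling itself. Over all measured genes the share of differences past 1.5-fold that were upward was 55.4%, against 1.22% with spike-in scaling, 44.5% after quantile normalization and 67.8% with no filter on dim probes. After quantile normalization 0 members were at least 1.5-fold higher. With no filter, 2 of 47 were at least 1.5-fold higher and 1 past 2-fold, which is Slc25a23, not well above background on either array. After normexp 1 member was at least 1.5-fold lower and 0 higher, and without the rows at the top of the array, where Slc25a5, Slc25a37 and Slc25a47 have their spots and 25 members keep a value (median -0.01, 13 below 0), 1 was at least 1.5-fold lower. For the counts after quantile normalization and normexp the cause was not tested. Averaging the probes changed 2 members by more than their scanner error, Slc25a3 from -0.22 to -0.49 and Slc25a44 from 0.50 to 0.24. Both were already past that error. Slc25a33 went from 0.12 to 0.24, past the scanner error of 0.20 of its brighter probe. The normexp and array row alternatives were chosen after seeing the data; normexp used the median spot signal because no mean signal was at hand, and the plan with the mean was not run. With 1 array per genotype no array could be left out. No paired analysis was possible because each genotype has 1 array.

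Dim members such as Slc25a27, Slc25a30, Slc25a35 and Slc25a47 lie close to background, with scanner errors of 0.24 to 0.37, and no value here covers the variation between mice or cultures. With 1 array per genotype, genotype and culture cannot be told apart.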
